A study of Mus musculus with 6 samples.

Results

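The supply and loading of peptides for major histocompatibility complex (MHC) class I was examined through 10 genes in mouse dendritic cells grown from bone marrow. The genes were H2-K1, H2-D1, B2m, Tap1, Tap2, Tapbp, Psmb8, Psmb9, Psmb10 and Erap1. They were found by symbol in the platform annotation, alone or together with other symbols, which gave 12 of the 35556 probe sets on the array. Of these, 8 carried 1 symbol and 4 carried several. H2-K1 and H2-D1 had no probe set of their own and shared 2, and Tapbp had 1 of its own and 2 shared with the ribosomal protein gene Rps3a1.

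The study compared cells from 2 groups of recipient mice, all female C57BL/6J. Recipients had been injected with 2000000 marrow cells, the number given for every sample. The cells came from congenic donor mice, B6.SJL-Ptprca, that were either naive or had been exposed to ultraviolet (UV) light on shaved back skin. The UV dose was up to 8 kJ/m2 from lamps with 65% of output as UVB and a peak at 313 nm, and mice were 6 to 10 weeks old at that time. Recipient marrow then grew for 5 days with GM-CSF and IL-4, both at 10 ng/ml, and non-adherent cells were enriched on magnetic beads to more than 95% CD11c+. Both groups therefore share the transplant, the cytokines and the enrichment, and they differ in the donor. How many of the cultured cells descended from the donor rather than the host is not given in the sources used here. There were 3 arrays per group, of preparations that the labels do not describe as separate animals, so every p-value refers to the spread among preparations, which could be purely technical.

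MHC class I molecules show peptides from inside the cell to CD8+ T cells. The proteasome cuts proteins into peptides, and under interferon-gamma its standard catalytic subunits are exchanged for those of the immunoproteasome. The transporter TAP carries the peptides into the endoplasmic reticulum, where aminopeptidases trim them and tapasin helps to place them on the heavy chain and its light chain, beta-2 microglobulin. Dendritic cells use the same machinery to start T cell responses and to cross-present material they have taken up.

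No probe set of the 10 genes differed between the groups at an adjusted p under 0.05 in limma's test. All 12 passed the filter on dim signals, and 0 of 12 were called, against 17 of 16387 tested probe sets, or 0.104%, all higher in the UV-donor group. That background count was 0 to 2 with any 1 array left out other than UV-donor array 1, without which it was 21, 1 of them lower. The differences were small, from -0.12 to 0.15 on the log2 scale, and their 95% intervals ran from -0.28 to 0.27, or 0.822-fold to 1.20-fold. Larger changes than that in either direction lay outside the interval of every probe set. The arrays measured mixed RNA of each preparation, in which fewer cells of a type cannot be told apart from less RNA per cell.

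Psmb9, Psmb8 and Tap2 were the only probe sets whose 3 UV-donor values all lay above the 3 naive-donor values, and none lay wholly below. Over all tested probe sets 12.2% were separated in the higher direction and 9.16% in the lower direction, so 3 of 12 and 0 of 12 are to be read against those shares. Psmb9 alone had an unadjusted p under 0.05 in limma, higher in the UV-donor group, where 9.41% of all tested probe sets met that rule and 5.55% met it in the lower direction. Values were higher for 8 of the 12 probe sets and lower for 4, with a median difference of 0.035, beside 0.0030 over all tested probe sets. Without the 2 probe sets shared with Rps3a1 it was 6 of 10, with a median of 0.024.

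**Figure D1:**
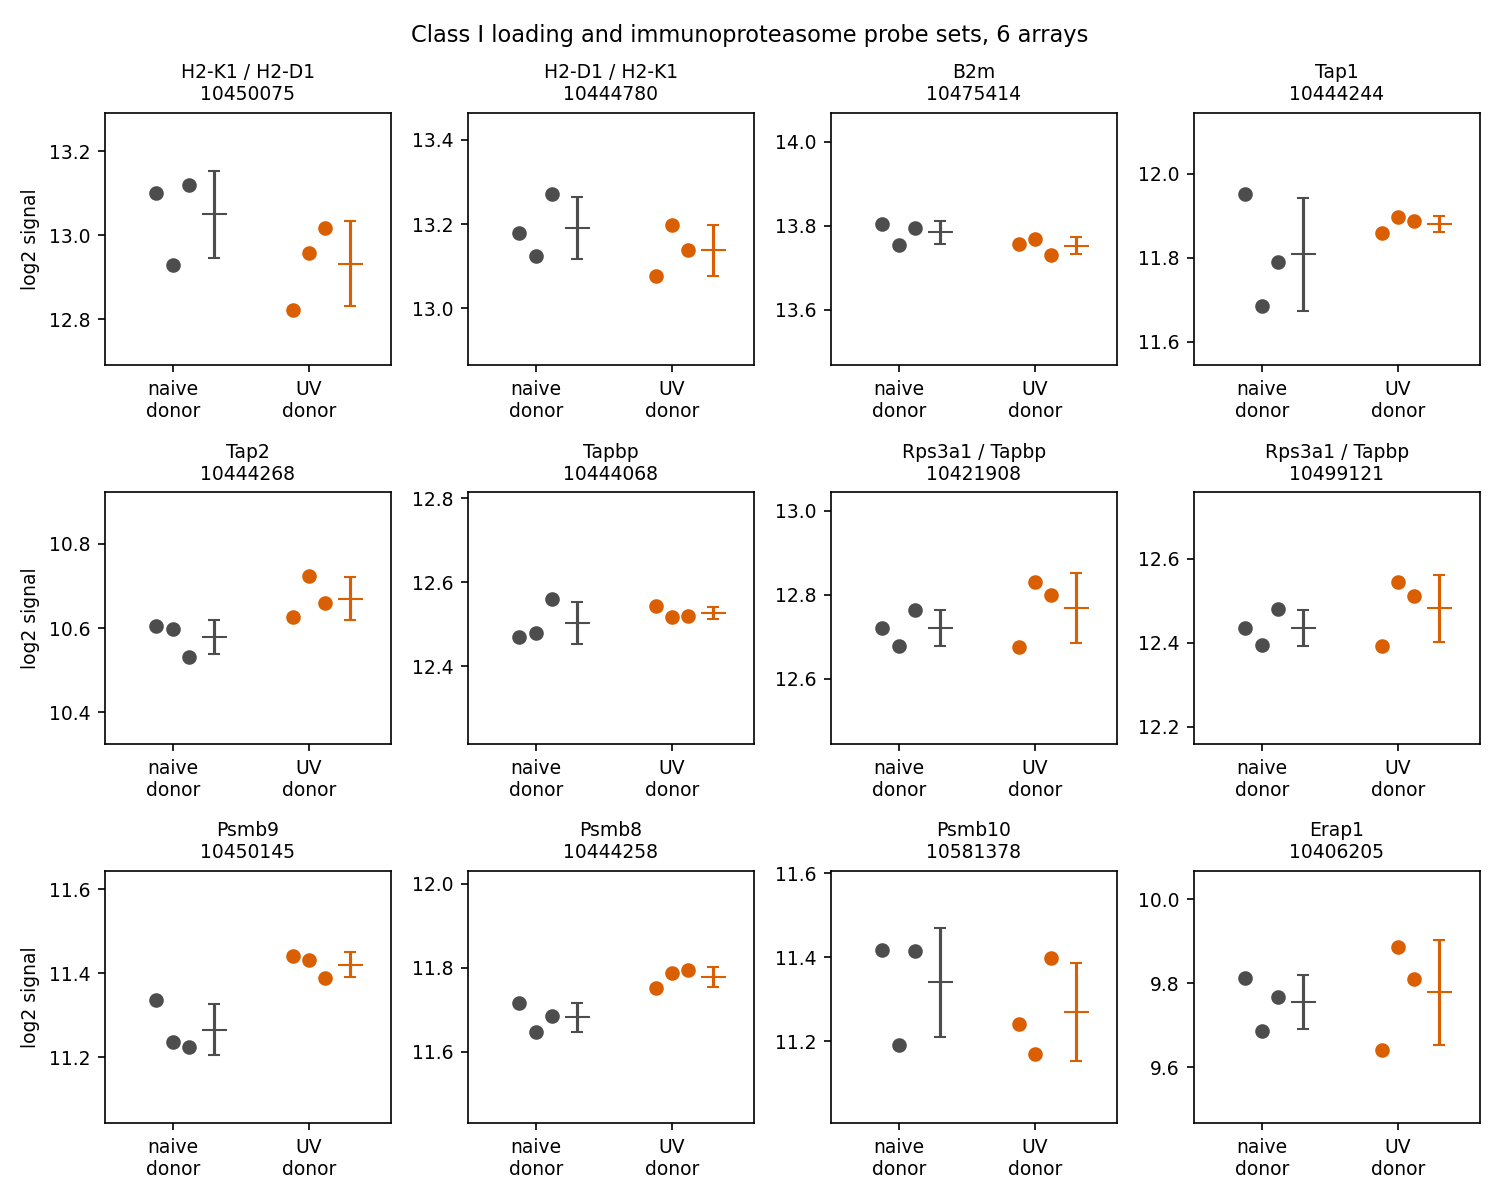
Log2 signal (vertical axis, each panel spanning the same range) of the 12 probe sets on the 3 naive-donor arrays (grey) and the 3 UV-donor arrays (orange), with a point per array in replicate order and the group mean ± SD beside it. The groups are separated for Psmb9, Psmb8 and Tap2 and overlap for the other 9 probe sets.

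The heavy chains H2-K and H2-D are the part of the class I molecule that holds the peptide. Their genes are close relatives, and the annotation gives the symbols of both, with LOC547349, to both probe sets, so neither gene can be read on its own. Probe set 10450075, whose leading accession is of H2-K1, read 13.10, 12.93 and 13.12 on naive-donor arrays 1 to 3 and 12.82, 12.96 and 13.02 on UV-donor arrays 1 to 3. Its lowest value was on UV-donor array 1, and the groups overlapped. The difference was -0.12 (SE 0.07, 95% interval -0.28 to 0.049, limma adjusted p = 0.476). It was -0.062 without UV-donor array 1 and -0.18 without naive-donor array 2 (limma adjusted p = 0.333).

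Probe set 10444780, whose leading accession is of H2-D1, read 13.18, 13.12 and 13.27 in the naive-donor group and 13.08, 13.20 and 13.14 in the UV-donor group. UV-donor array 1 was again lowest and naive-donor array 3 again highest, with overlapping groups. The difference was -0.053 (SE 0.057, 95% interval -0.18 to 0.078, limma adjusted p = 0.700). It was -0.022 without UV-donor array 1, -0.013 without naive-donor array 3 and -0.087 without naive-donor array 2. The annotation lists 15 accessions for this probe set and 20 for the other, of which 0 are shared. Their difference on the same array ranged from 0.079 to 0.26 with an SD of 0.069, about the size of the spread of either within a group.

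The upstream sequences of H2-K1 and H2-D1 are shown because they bear the elements through which class I heavy chain genes are known to respond to NF-kappa B and to interferon. Both lines are from RefSeq on GRCm38.p6, at chr17:34000429-34000458 on the minus strand for H2-K1 and chr17:35262923-35262952 on the plus strand for H2-D1, 5′ to 3′ along each gene. Capitals mark GGGGATTCC, the core of the H-2 kappa B element, and an interferon regulatory factor motif, which reads AANNGAAA on the other strand.
H2-K1: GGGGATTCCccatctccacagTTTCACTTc
H2-D1: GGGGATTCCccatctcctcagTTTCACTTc
These 30 bases differ between the genes at 1 position. The stretch begins 111 bases before the nearer of the annotated starts of H2-K1 and 171 bases before that of H2-D1. In a local alignment of the 250 bases before each start, 161 of 177 aligned positions, or 91%, were identical. GGGGATTCC occurred on either strand in 0.213% of 32817 such windows over the genome's annotated genes and AANNGAAA in 21.3%. A match in letters is a description and shows no binding.

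B2m on chromosome 2 encodes beta-2 microglobulin, the light chain shared by all class I molecules. It read 13.80, 13.75 and 13.79 in the naive-donor group and 13.76, 13.77 and 13.73 in the UV-donor group. All 6 values lay close together, and the groups overlapped. The difference was -0.032 (SE 0.043, 95% interval -0.13 to 0.068, limma adjusted p = 0.770), and its sign turned when arrays were centred on their medians (0.0027). Its interval was the narrowest of the 12, at 0.913-fold to 1.05-fold.

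Tap1 and Tap2 encode the paired chains of the peptide transporter and lie in the MHC class II region of chromosome 17, with Psmb8 between them and Psmb9 beside Tap1. Tap1 read 11.95, 11.68 and 11.79 in the naive-donor group and 11.86, 11.90 and 11.89 in the UV-donor group. The naive-donor arrays held both its highest and its lowest value, with an SD of 0.13 against 0.02 in the UV-donor group. The difference was 0.072 (SE 0.069, 95% interval -0.087 to 0.23, limma adjusted p = 0.660). It was 0.14 without naive-donor array 1 and 0.010 without naive-donor array 2.

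Tap2 read 10.60, 10.60 and 10.53 in the naive-donor group and 10.63, 10.72 and 10.66 in the UV-donor group. The groups did not overlap, with a gap between the highest naive-donor and the lowest UV-donor array that was small beside the spread within groups. The difference was 0.092, or 1.07-fold (SE 0.049, 95% interval -0.021 to 0.20, limma unadjusted p = 0.0964, adjusted p = 0.410). Of all tested probe sets, 34.0% had a larger difference in either direction.

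Tapbp encodes tapasin, which bridges TAP and the empty class I molecule. Its own probe set, 10444068, read 12.47, 12.48 and 12.56 in the naive-donor group and 12.54, 12.52 and 12.52 in the UV-donor group. The UV-donor values lay inside the naive-donor range. The difference was 0.024 (SE 0.046, 95% interval -0.082 to 0.13, limma adjusted p = 0.847), and with any 1 array left out it ran from 0.0073 (without naive-donor array 1) to 0.053 (without naive-donor array 3).

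The probe sets that list Tapbp beside Rps3a1 behaved as a pair. Probe set 10421908 read 12.72, 12.68 and 12.76 in the naive-donor group and 12.68, 12.83 and 12.80 in the UV-donor group, and probe set 10499121 read 12.43, 12.39 and 12.48 and then 12.39, 12.54 and 12.51. The second lay 0.284 to 0.289 below the first on all 6 arrays, whereas the gap from the first to Tapbp's own probe set ranged from 0.13 to 0.31. Each lists 8 accessions, of which the RefSeq entry is Rps3a1, a protein of the small ribosomal subunit. Of the 8, 1 is shared with Tapbp's own probe set and 1 with Rps3a1's own. Their differences of 0.048 and 0.046 (limma adjusted p = 0.729 and 0.737) are therefore not a reading of Tapbp alone.

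Psmb9 encodes the immunoproteasome subunit beta 1i, also called LMP2. It read 11.34, 11.24 and 11.23 in the naive-donor group and 11.44, 11.43 and 11.39 in the UV-donor group. Every UV-donor array was above every naive-donor array, and naive-donor array 1 came nearest to them. The difference was 0.15, or 1.11-fold (SE 0.05, 95% interval 0.041 to 0.27, limma unadjusted p = 0.0140), and it did not pass after adjustment (limma adjusted p = 0.225). This was the only 1 of the 12 intervals without 0, and 13.7% of all tested probe sets had a larger difference in either direction. Without naive-donor array 2 the unadjusted p in limma was 0.0511.

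Psmb8 encodes beta 5i, or LMP7. It read 11.72, 11.65 and 11.68 in the naive-donor group and 11.75, 11.79 and 11.79 in the UV-donor group. The groups did not overlap, and naive-donor array 1 and UV-donor array 1 were the nearest pair. The difference was 0.096, or 1.07-fold (SE 0.044, 95% interval -0.0060 to 0.20, limma unadjusted p = 0.0618, adjusted p = 0.359).

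Psmb10 on chromosome 8 encodes beta 2i, or MECL-1, the subunit that completes the immunoproteasome. It read 11.42, 11.19 and 11.41 in the naive-donor group and 11.24, 11.17 and 11.40 in the UV-donor group. A high and a low value occurred in each group, so the groups overlapped across nearly their whole range. The difference was -0.071 (SE 0.082, 95% interval -0.26 to 0.12, limma adjusted p = 0.728), and it was 0.00011 when arrays were weighted by their quality. With any 1 array left out it ran from -0.15 (without naive-donor array 2) to -0.021 (without UV-donor array 2).

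The stretch between Tap1 and Psmb9 is shown because 1 sequence lies upstream of both genes, which are read in opposite directions. Their annotated starts leave 225 bases between them, at chr17:34187331-34187555 in the RefSeq annotation of GRCm38.p6, printed on the plus strand, along which Tap1 is read. Capitals mark CCAAT, the Y box letters, 8 bases upstream of Psmb9, and TGACG, the core of the X2 box or cyclic AMP response element, 86 bases upstream of Tap1.
Tap1 to Psmb9: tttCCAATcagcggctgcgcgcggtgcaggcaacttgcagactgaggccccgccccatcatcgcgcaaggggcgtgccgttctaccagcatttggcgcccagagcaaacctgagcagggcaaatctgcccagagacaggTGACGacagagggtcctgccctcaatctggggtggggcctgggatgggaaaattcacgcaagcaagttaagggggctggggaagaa
On the arrays the gene on 1 side of this stretch, Psmb9, had separated groups and the gene on the other, Tap1, did not. Both were higher in value in the UV-donor group, by 0.15 and 0.072, and a contrast between the genes was not tested.

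Of the 10 genes, 9 had a window of 250 bases before the start in the table used, and Tap2 had none. TGACG, on either strand, was found for H2-K1, H2-D1, B2m, Tap1 and Psmb9, and in 17.7% of all windows. CCAAT was found for those 5 genes and for Tapbp, and in 33.8% of all windows. For Tap1 and Psmb9, TGACG and CCAAT are each a single site in the stretch between the genes, counted for both. AANNGAAA was found for H2-K1, H2-D1 and B2m. The gamma-activated site TTCNNNGAA was found for Psmb8, and in 7.01% of all windows.

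Erap1 on chromosome 13 encodes the aminopeptidase that trims peptides inside the endoplasmic reticulum. It read 9.81, 9.69 and 9.77 in the naive-donor group and 9.64, 9.89 and 9.81 in the UV-donor group. The UV-donor arrays held both extremes. The difference was 0.024 (SE 0.070, 95% interval -0.14 to 0.19, limma adjusted p = 0.905), and its sign turned with quantile normalization (-0.011), without naive-donor array 2 (-0.011) and without UV-donor array 2 (-0.030).

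**Figure D2:**
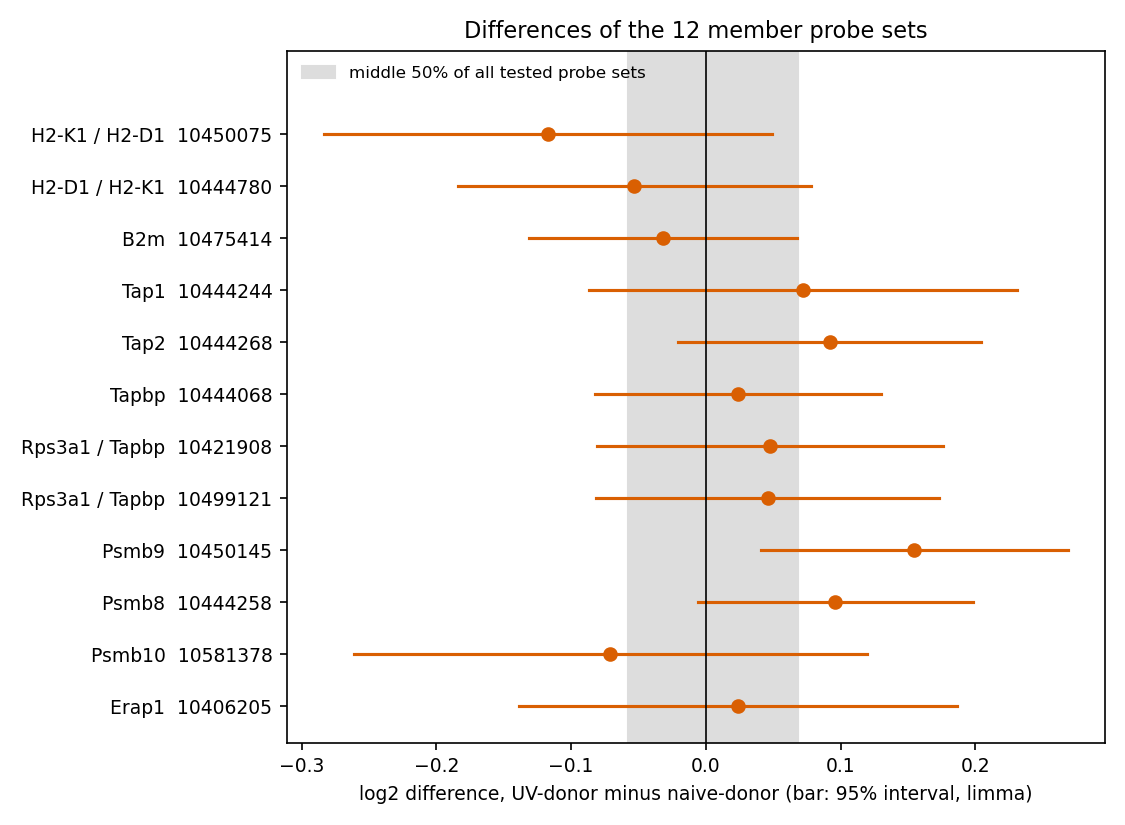
Log2 difference of each of the 12 probe sets, UV-donor minus naive-donor (horizontal axis), with its 95% interval from limma, beside the middle 50% of all tested probe sets, -0.058 to 0.069 (grey band). Only the interval of Psmb9, 0.041 to 0.27, does not hold 0.

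Each immunoproteasome subunit takes the place of a standard subunit, beta 5i that of Psmb5, beta 1i that of Psmb6 and beta 2i that of Psmb7. The standard subunits were not called. Psmb5 differed by -0.095 (SE 0.051, limma adjusted p = 0.419), Psmb6 by 0.011 (SE 0.054) and Psmb7 by 0.023 (SE 0.055). The difference between partners was taken within each array and set relative to its naive-donor mean. Probe sets have no common scale, so it shows how the balance moved between arrays and not the amount of either protein, and it was not tested. Psmb8 and Psmb9 had separated groups on their own, so their balances partly repeat those values. The share of separated groups among other pairs of probe sets was not computed.

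For Psmb8 against Psmb5 the naive-donor arrays were at -0.028, 0.025 and 0.0024 and the UV-donor arrays at 0.21, 0.20 and 0.16. The groups were apart, by 0.19 on average, or 1.14-fold, and by 0.18 to 0.21 with any 1 array left out. Of this, 0.096 was the higher value of Psmb8 and 0.095 the lower value of Psmb5. For Psmb9 against Psmb6 the naive-donor arrays were at 0.033, 0.030 and -0.063 and the UV-donor arrays at 0.24, 0.14 and 0.052. These groups were also apart, by 0.14 on average, or 1.10-fold, with UV-donor array 3 close to the naive-donor arrays. The range with any 1 array left out was 0.095 to 0.19. For Psmb10 against Psmb7 the groups overlapped, at -0.0024, -0.16 and 0.17 in the naive-donor group and -0.0997, -0.18 and -0.00033 in the UV-donor group.

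**Figure D3:**
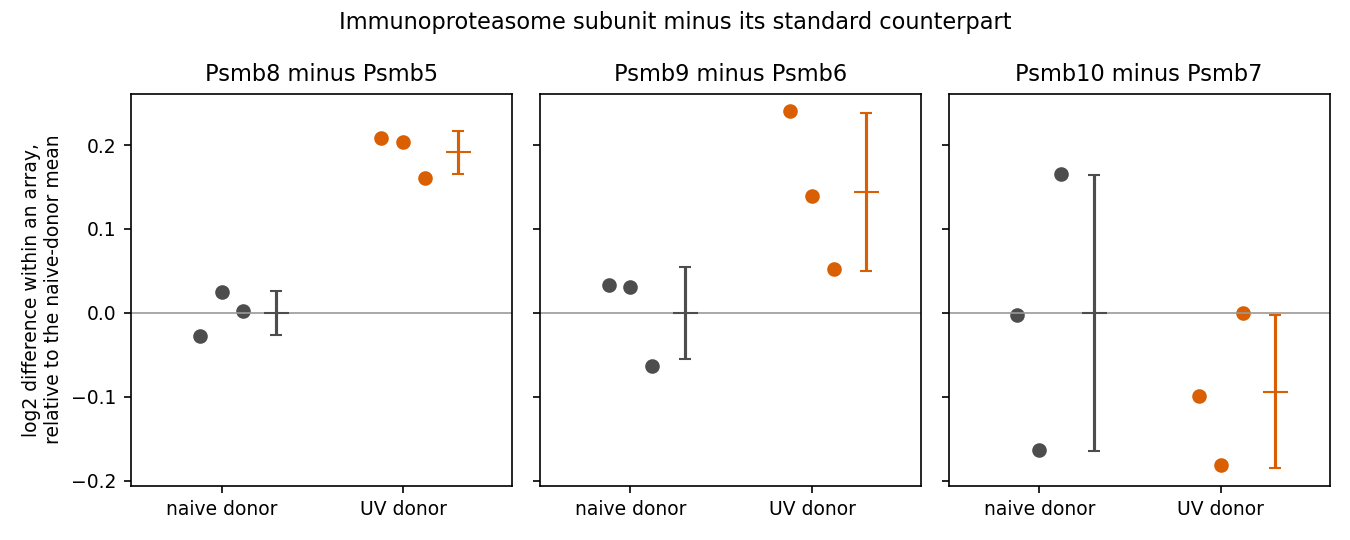
Log2 signal of each immunoproteasome subunit minus that of the standard subunit it replaces, within an array and relative to the naive-donor mean (vertical axis), for 3 naive-donor (grey) and 3 UV-donor (orange) arrays, with the group mean ± SD beside the points. The groups are apart for Psmb8 minus Psmb5 (mean 0.19) and Psmb9 minus Psmb6 (mean 0.14) and overlap for Psmb10 minus Psmb7.

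Other genes of the pathway were described through 8 lists holding 78 symbols, of which 73 were found, on 98 probe sets. Of these, 96 passed the dim filter and 0 were called (lowest limma adjusted p = 0.179). At an unadjusted p under 0.05 in limma 8 were higher, or 8.33%, and 0 lower, beside 9.41% and 5.55% of all tested probe sets. The groups were separated in the higher direction for 11, or 11.5%, and in the lower direction for 3, or 3.12%, beside 12.2% and 9.16% over all tested probe sets. The median difference was 0.015, and the counts in the higher direction lay at the background share. H2-Q7, Fcgrt and Lnpep were among the symbols not analysed here.

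Nonclassical class I chains, which include the relatives of H2-K and H2-D and the lipid-presenting CD1d, were mostly lower in value, 12 of 15, with a median of -0.057. With arrays centred on their medians it was 9 of 15. UV-donor array 1 was the lowest array on 9 of the 15 probe sets and the highest on the 3 that were higher in value, H2-T24, Cd1d1 and Hfe. Without it 9 of 15 were lower in value, with a median of -0.0095. H2-Bl differed by -0.12 (limma adjusted p = 0.403) and Cd1d1 by 0.14 (limma adjusted p = 0.513). H2-T23, the Qa-1 chain, was read by a probe set shared with H2-T-ps and differed by -0.029. None of the 15 had separated groups. A further probe set of the list, shared by H2-T3 and H2-T18, was below the dim filter and was not tested. It read 6.11, 6.18 and 6.23 in the naive-donor group and 6.04, 6.07 and 5.86 in the UV-donor group. Its groups were thus separated in the lower direction, by a difference of -0.18.

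Chaperones that fold and load class I chains were split 4 to 4, with a median of 0.0094. Calnexin, Canx, which holds new heavy chains, read 13.36 to 13.39 in the naive-donor group and 13.27 to 13.33 in the UV-donor group. Its groups were separated, by a difference of -0.075 that did not pass (limma adjusted p = 0.446). Calreticulin, Calr, and the disulfide isomerase ERp57, Pdia3, which act beside tapasin, differed by -0.0020 and 0.021. Hspa5, or BiP, differed by -0.072 (limma adjusted p = 0.489).

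The remaining subunits of the 20S core, which the standard and the immunoproteasome share, were higher in value on 10 of 15 probe sets. Their median was 0.037. With centred array medians it was 15 of 15, but centring raised every difference on the array by the same amount. The median of all tested probe sets thereby went from 0.0030 to 0.038. Psma7, the alpha 4 subunit, read 10.57 to 10.64 in the naive-donor group and 10.73 to 10.79 in the UV-donor group. Its difference of 0.15 was as large as that of Psmb9, with separated groups, and did not pass (limma unadjusted p = 0.0105, adjusted p = 0.205). Psma2 differed by 0.11 (limma adjusted p = 0.422).

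Proteasome activators and assembly factors were higher in value on 7 of 10 probe sets and on 4 of 10 after quantile normalization. Pomp, the assembly factor that supports formation of the immunoproteasome, read 9.87, 10.02 and 9.95 in the naive-donor group and 10.39, 10.15 and 10.09 in the UV-donor group. UV-donor array 1 was highest, and the groups were separated by a difference of 0.27, or 1.20-fold (SE 0.08, limma unadjusted p = 0.0118, adjusted p = 0.212). The interferon-inducible activator subunits PA28 alpha and beta, Psme1 and Psme2, differed by -0.0010 and 0.027 on their own probe sets. A further probe set, shared by Psme2b and Psme2, differed by 0.040. Psme3, the gamma form, differed by -0.095, with all UV-donor values below the naive-donor values (limma unadjusted p = 0.0608, adjusted p = 0.357).

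Among cytosolic peptidases, 3 of 5 probe sets were higher in value, and 1 of 5 after quantile normalization. Blmh, bleomycin hydrolase, which trims class I precursors, read 9.31, 9.25 and 9.07 in the naive-donor group and 9.61, 9.44 and 9.43 in the UV-donor group. The groups were separated by a difference of 0.28, or 1.22-fold (SE 0.08, limma unadjusted p = 0.00594, adjusted p = 0.179). Npepps, the puromycin-sensitive aminopeptidase, differed by -0.070 (limma adjusted p = 0.609).

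Nlrc5, the transactivator of class I genes, was covered by 19 probe sets, 13 higher and 6 lower in value, with differences from -0.073 to 0.23 and a median of 0.064. Probe set 10574151 had the largest difference, 0.23 (limma unadjusted p = 0.0237, adjusted p = 0.263), and was the only one of the 19 at an unadjusted p under 0.05. None of the 19 had separated groups, and UV-donor array 1 gave the highest value on 9 of them. Irf1, an interferon-induced activator of Tap1 and Psmb9, differed by 0.21 with separated groups on probe set 10376060 (limma unadjusted p = 0.0479, adjusted p = 0.331). Its other probe set, 10385870, differed by -0.026 with overlapping groups and read 6.90 to 7.19, near the dim threshold of 6.52. The 95% intervals of the pair, 0.0025 to 0.43 and -0.22 to 0.16, overlapped. Socs1, an interferon-induced inhibitor of cytokine receptor signalling, differed by 0.13 with separated groups (limma unadjusted p = 0.0260, adjusted p = 0.269). The interferon-gamma receptor chains Ifngr1 and Ifngr2 differed by -0.014 and 0.0043.

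The largest values of the 8 lists came from 1 gene of cross-presentation, on 2 probe sets. The other tested probe sets of that list ran from -0.14 to 0.083. Wdfy4, which dendritic cells need to cross-present cell-associated antigen, differed by 0.48 on probe set 10418848 and 0.45 on probe set 10418868 (limma unadjusted p = 0.00794 and 0.00648, adjusted p = 0.194 and 0.181). On the first the arrays read 10.58, 10.83 and 10.47 in the naive-donor group and 11.40, 10.91 and 11.02 in the UV-donor group. UV-donor array 1 stood highest on both probe sets. Over the list 5 of 9 were higher in value, with a median of 0.025.

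**Figure D4:**
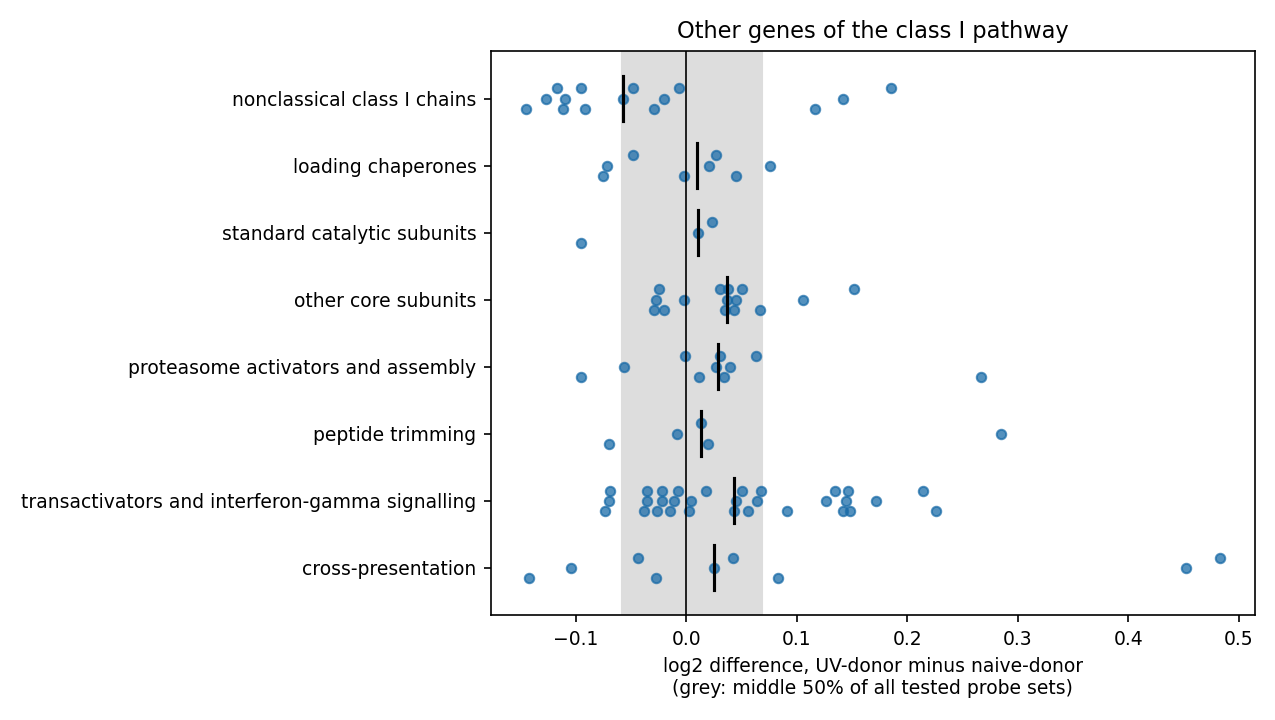
Log2 difference, UV-donor minus naive-donor (horizontal axis), of the 96 tested probe sets of the 8 pathway lists, with a point per probe set and a black bar at each list's median, beside the middle 50% of all tested probe sets (grey band). Medians run from -0.057 for nonclassical class I chains to 0.043 for transactivators and interferon-gamma signalling, and the points farthest to the right are the probe sets of Wdfy4.

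The labelled cell type was checked against its markers. Itgax, which encodes CD11c, read 13.71 to 13.79 on the 6 arrays. The 8 dendritic markers averaged 11.20 to 11.24 in the naive-donor group and 11.31 to 11.35 in the UV-donor group. Of these, Cd209a was called (0.59, limma adjusted p = 0.0243) and Flt3 was below the dim filter. The 7 tested had a median difference of 0.045, with 5 higher in value and 2, Itgax and Clec10a, lower. After Cd209a the largest difference was 0.10, of H2-Ab1. T and NK cell markers averaged 6.23 to 6.43 and 6.25 to 6.31, with 4 of 7 below the filter, and B cell markers had 2 of 4 below it. Markers of 2 other myeloid lineages moved with the groups. The summed log2 signal of 6 macrophage markers was 53.2 to 53.6 in the naive-donor group and 55.2 to 55.6 in the UV-donor group, with 5 higher in value and C1qb called (0.63, limma adjusted p = 0.0243). That of 8 neutrophil markers was 62.4 to 64.4 and 66.0 to 67.6, with 6 higher in value and S100a8 (0.77, limma adjusted p = 0.0491) and Ltf (0.54, limma adjusted p = 0.0243) called. None of these marker calls stood with the replicate block, with all probe sets tested together, or without naive-donor array 2 or 3, where limma called 0 probe sets in the whole table. The 3 tested progenitor markers were also higher in value, without a call, and the plasmacytoid and erythroid lists had no call. The part of these cell types in the values of Psmb9, Psmb8 and Tap2 was not tested. Over all probe sets, the lowest Pearson correlation of 2 arrays was 0.9954 within a group and 0.99496 between groups.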

How the data were processed

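Signals came from 6 whole-transcript expression arrays, 3 per group. The deposited values are log2 signals, judged from their range. RMA, oligo and limma are named in the submitters' processing notes, without versions, and RMA corrects background, equalises arrays by quantiles and combines probes. It can compress fold changes and cannot separate probe sets that share sequence. Gene symbols came from the platform annotation, and all 12 identifiers of the member probe sets matched a RefSeq table of GRCm38.p6. Of 35556 probe sets, 21789 had 1 symbol, 1621 several and 12146 none. Those with a symbol and a mean at or above the 30th percentile (6.52) were tested, 16387 in all, with limma 3.58.1 in R 4.3.3 (lmFit, eBayes, two-sided) and Benjamini-Hochberg adjustment over all of them. Calls needed an adjusted p under 0.05. The test was tried on simulated data.

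Members, lists, motifs and the naming rule were chosen with earlier results of these data known. The rule named all members, the 2 probe sets of smallest p in each list with 1 symbol, and a fixed set of pathway genes. For Nrdc the older symbol Nrd1 was used. Alternatives were the replicate block, other features and dim filters, 3 scalings, another variance prior, array weights, a threshold of 0.10 and leaving out each array. With 3 arrays against 3, an exact permutation p is at least 0.1. The number of arrays limits the precision. Scan dates and batches are not given in the sources used here. Motifs were searched on both strands with Python 3.11.15, sequences were aligned with Biopython 1.88, and figures were drawn with matplotlib 3.10.9.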

Additional observations from a re-analysis of the deposited data

How the results depend on the processing

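The member probe sets had 0 calls in each of the 16 alternative fits that held them and at an adjusted p under 0.10. The 4 with several symbols were not in the fit of 1 probe set per gene. The lowest limma adjusted p over those fits was 0.148, for Psmb9 with centred array medians. Of 188 alternative member values, 183 kept their direction. The 5 that turned were B2m with centred medians (0.0027), Psmb10 with array weights (0.00011), and Erap1 with quantile normalization (-0.011) and in 2 of its leave-one-out values, which ran from -0.030 to 0.092. The Psmb9 difference ran from 0.13 to 0.19, with an unadjusted p under 0.05 in 15 of 16 fits, Psmb8 from 0.078 to 0.13 and Tap2 from 0.064 to 0.13.

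The background count moved more. In place of 17 probe sets limma called 34 with centred medians, 55 with an intensity trend and robust prior (6 of them lower), 37 with array weights (3 lower) and 68 at an adjusted p under 0.10. It called 0 when all probe sets were tested together (with an unadjusted p under 0.05 for 1801 higher and 1708 lower) and 0 with the replicate block (1481 and 764). Leaving out single arrays gave 0 to 21, with 0 without naive-donor array 2 (1524 and 761) and 0 without naive-donor array 3 (1310 and 815). Cyclic loess, quantile normalization, other dim filters and 1 probe set per gene gave 15 to 24. Deviations of same-numbered arrays from their group means had correlations of -0.14, -0.20 and 0.15. Arrays with different numbers were not compared in this way, so these values cannot decide whether the numbers pair the arrays. Centred medians moved the median of all tested probe sets from 0.0030 to 0.038. The lowest signal of a member on any array was 9.64, above the dim threshold of 6.52.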

Other observations

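Psmb9, Tap1, Psmb8, Tap2 and H2-Ob lie in that order on chromosome 17 with no other protein-coding gene annotated between them. Their differences were 0.15, 0.072, 0.096, 0.092 and 0.32, all higher in value in the UV-donor group. H2-DMb1, the neighbour on the other side of Psmb9, had no probe set with its symbol alone and was not read. H2-Ob, a chain of the class II peptide exchange regulator, read 9.95, 9.58 and 9.86 in the naive-donor group and 9.95, 10.32 and 10.09 in the UV-donor group, with a limma adjusted p of 0.263. The heavy chain probe sets, from the same chromosome, were lower in value, at -0.12 and -0.053. None of these values passed the test, and the grouping by position was made after the values were seen.

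The classical and nonclassical heavy chains named H2 gave 14 tested probe sets, of which 13 were lower in value as deposited, after quantile normalization and after cyclic loess, and 10 with centred array medians. UV-donor array 1 was the lowest array on 11 of the 14, and without it 10 of 14 were lower in value and the median went from -0.093 to -0.022, an alternative added after the data were seen. The exception as deposited was H2-T24, at 0.19, which was highest on UV-donor array 1. None was called or had an unadjusted p under 0.05 in limma. These probe sets read related sequences and are not independent, and this grouping too was made after the values were seen.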
